A study of Mus musculus with 5 samples.

Results

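Ptf1a is a basic helix-loop-helix (bHLH) transcription factor that works as part of a trimeric complex called PTF1. In that complex Ptf1a pairs with a class I bHLH protein, or E protein (the products of Tcf3, Tcf4 and Tcf12), and the pair is joined by Rbpj, the DNA-binding protein better known as the nuclear effector of Notch. Later in pancreas development Rbpj is replaced by its paralogue Rbpjl, and the complex with Rbpjl drives the genes of digestive enzymes in acinar cells. These 6 genes were read on 20 probe sets, those that the platform annotation assigns to exactly 1 gene symbol in that group, out of 45101 probe sets on the array. There was 1 probe set for Ptf1a, 3 for Rbpj, 2 for Rbpjl, 3 for Tcf3, 6 for Tcf4 and 5 for Tcf12.

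RNA came from the dorsal pancreatic buds of E10.5 C57BL/6J mouse embryos, from matings between Ptf1a heterozygotes. The genotypes compared were Ptf1a null mutant (3 arrays) and Ptf1a heterozygote (2 arrays), so the reference buds carry a mutant copy too and no wild-type bud was analysed here. Each array received RNA of 3 pooled buds, about 2000 to 3000 cells, which had been mechanically freed of mesenchyme and amplified in 2 linear rounds. The labels do not give the litter of each pool or the part of the gene that the null allele lacks, so p-values cover only the spread among these particular pools and the Ptf1a probe set may or may not lie in the deleted part.

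The complex is known to act on its own genes: PTF1 binds control regions of Ptf1a and of Rbpjl, at an E-box (CANNTG, the bHLH part of the site) set a short way from a TC-box (TGGGAA, the RBP-J part). The sequence next to both start sites is shown here because the complex is known to act on both genes; Rbpjl was near or below background on these arrays, so the data bear on its site little. The sequences are from RefSeq, build GRCm38.p6, plus strand, with every CANNTG and every TGGGAA (either strand) in capitals. The first is the 250 bases before the Ptf1a start site, chr2:19445413-19445662, and the second is a 30-base stretch upstream of the tabulated Rbpjl start site, chr2:164403089-164403118.
Ptf1a: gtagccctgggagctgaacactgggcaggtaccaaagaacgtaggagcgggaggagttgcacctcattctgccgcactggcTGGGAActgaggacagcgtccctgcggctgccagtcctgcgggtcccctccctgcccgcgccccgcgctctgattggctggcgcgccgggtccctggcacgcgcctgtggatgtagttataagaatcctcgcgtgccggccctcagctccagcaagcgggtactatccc
Rbpjl: gTGGGAAgcctaCATCTGcccagCAGGTGt

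In the Rbpjl stretch the TC-box letters were followed by CATCTG after 5 bases and by CAGGTG after 16 bases. The whole 300-base Ptf1a window (250 bases before the start to 50 after) held 1 TGGGAA and 0 CANNTG, so it held no E-box beside a TC-box. Control regions of Ptf1a outside this window were not read, so the bound site need not lie in the sequence shown. Among 32851 promoter windows of the same length, 72.3% held CANNTG, 25.6% held TGGGAA, 19.0% held both, and 5.21% held both without overlap and at most 20 bases apart. Of the other partners, 1 of the 2 Rbpj windows held such a pair, 19 bases apart, and the windows of Tcf3 (1) and Tcf12 (3) held 0 TGGGAA. No window was available for Tcf4. A match of these letters describes the window and is not evidence of binding.

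Array medians of the deposited linear signal ran from 13.7 to 17.5. Each array has its own background level, taken from Bacillus subtilis control probe sets and lying at 3.03 to 3.29 on the normalised log2 scale, and 46.2% of probe sets were above it on all 5 arrays. Of 11 named markers of bud epithelium, 10 were above background on all arrays, Cpa1 being the exception. Their summed normalised signal (linear scale) was 1540 to 1970 in heterozygotes and 1050 to 1270 in nulls, with 9 markers lower in nulls. Pdx1, Mnx1, Nkx6-1, Cpa1 and Prox1 were lower on every null array than on both heterozygote arrays. Sox9, Foxa2, Onecut1, Cdh1, Epcam and Gata4 overlapped between groups. Mesenchyme markers summed to 1690 to 2280 and 2130 to 2670, with 11 of 13 higher in nulls and Twist1 above background on no array. Red blood cell markers summed to 9390 to 11600 and 7870 to 8780, with 6 of 6 lower and Hba-a1 above background on no array. Of these, Hbb-y and Klf1 overlapped between groups. Liver bud markers summed to 4280 to 5850 and 6310 to 6410, with 5 of 5 higher. Ttr, by far the brightest of them, overlapped between groups, as did Alb and Hhex, while Afp and Apoa1 were higher on every null array. Neural tube and neuron markers, which bear on Ptf1a because the dorsal neural tube also expresses it, summed to 131 to 142 and 76.0 to 125. Of these 10, just Elavl4 was above background on all arrays, and its groups overlapped, while Pax7 and Gad1 were above it on no array. The neural sum thus rests largely on dim probe sets. Neither fit called any marker of these lists. The sums of bud epithelium, red blood cell, liver bud and neural markers did not overlap between genotypes. Those of neural crest and glia markers did not either, at 90.6 to 96 in heterozygotes and 109 to 140 in nulls. Each of these 4 markers overlapped between groups, 2 being higher and 2 lower in nulls, and 2 were above background on all arrays. The sums of mesenchyme, islet, endothelium, leukocyte, stomach and intestine, and mesothelium and notochord markers overlapped. The part of these cell types in the values below was not tested. In pooled tissue, fewer cells of a type and less RNA per cell cannot be told apart.

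Across the table, limma's untrended fit called 0 of 45037 probe sets (0%) at an adjusted p under 0.05, with 2484 (5.52%) at an unadjusted p under 0.05. The trended, robust form of the fit called 8 (0.0178%). None of the 20 probe sets of the complex was among the calls of either fit, and the statements below are therefore levels and differences with their intervals. Null and heterozygote arrays did not overlap at 5 of the 20 with nulls lower and at 1 with nulls higher. The same held for 10.1% and 9.90% of all probe sets. The 5 lower ones were 1 of Ptf1a, 1 dim one of Rbpjl, 2 of Tcf4 and 1 of Tcf12. Probe sets of the same gene are not independent, so these counts are a description. Of the 20, 14 were above background on all arrays, with nulls apart and lower at 4 and apart and higher at 1, against 9.95% and 9.63% of the 20815 probe sets that were that bright. Means were lower in nulls at 7 of the 14 and higher at 7, where 50.5% of the 20815 were lower. Their median log2 difference was -0.029, against -0.005 over those 20815.

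**Figure D1:**
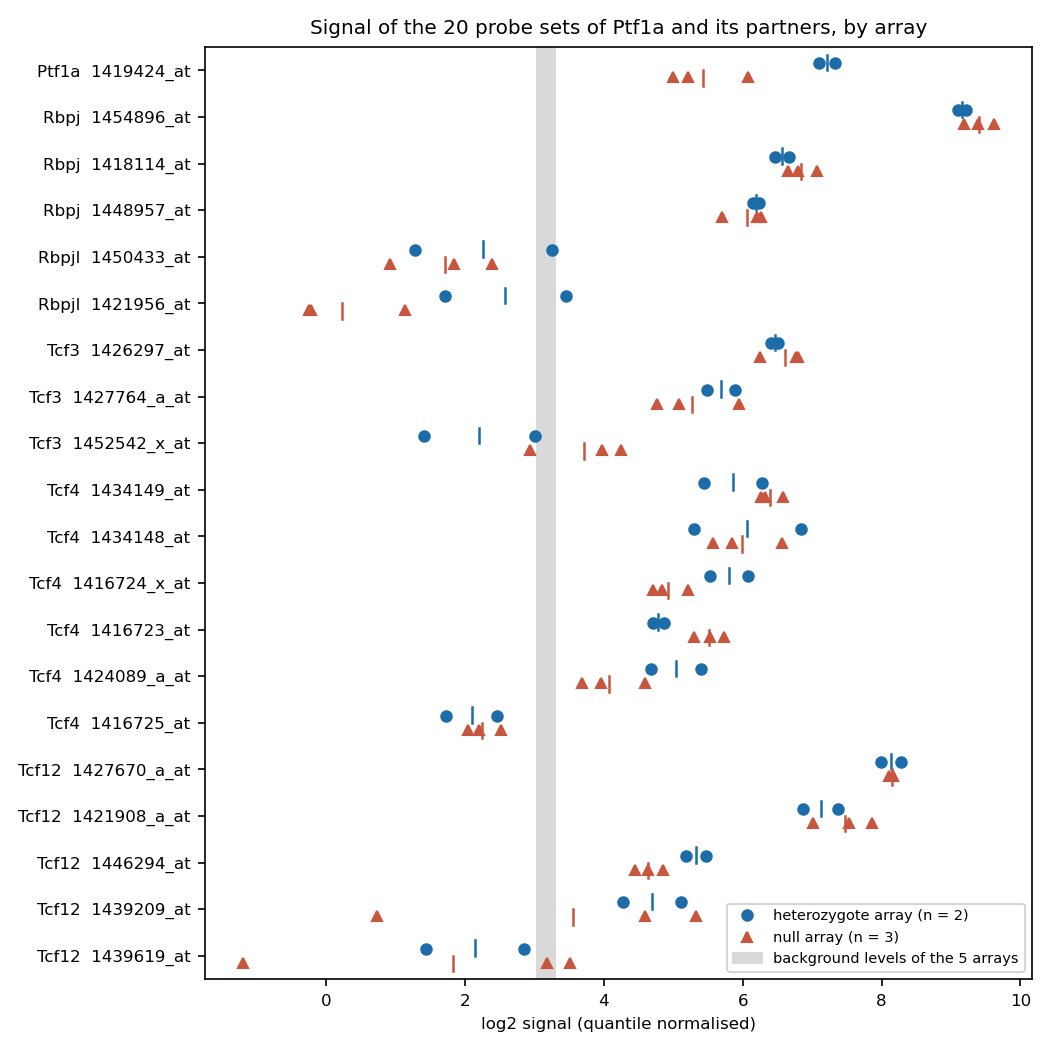
Log2 signal (x axis, quantile normalised) of the 20 probe sets (rows) on each array; circles are the 2 heterozygote arrays, triangles the 3 null arrays, vertical ticks the group means and the grey band the range of the arrays' background levels. Ptf1a nulls sit at 5.00 to 6.07, below both heterozygotes at 7.10 and 7.33, while the Rbpj groups overlap and Rbpjl lies near or below background.

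Ptf1a had lower signal on every null array. On the deposited linear scale its probe set 1419424_at read 159 on both heterozygote arrays and 41.1, 52.1 and 32.9 on null replicates 1 to 3. On the normalised log2 scale these were 7.10 and 7.33 against 5.21, 6.07 and 5.00. The nulls were thus a group apart from the heterozygotes, with null replicate 2 the nearest to them, and all 5 arrays were above background. The log2 difference was -1.79 (SE 0.47, 95% interval -3.00 to -0.58), a 3.46-fold lower signal, and it did not pass over the whole table (limma adjusted p = 0.651, and 0.457 in the trended fit; 0.457 to 0.921 over the alternatives). Of the 20815 probe sets above background on all arrays, 18 (0.0865%) differed by as much or more in that direction, Ptf1a included. Leaving out each array in turn gave -2.13 to -1.58.

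Rbpj, the partner shared with Notch signalling, overlapped between genotypes at each of its 3 probe sets. Its brightest probe set, 1454896_at, read 9.22 and 9.10 in heterozygotes and 9.62, 9.38 and 9.19 in nulls. The groups overlapped through null replicate 3, and the log2 difference was 0.24 (95% interval -0.67 to 1.15, limma adjusted p = 0.999). Probe set 1418114_at read 6.66 and 6.47 against 7.08, 6.65 and 6.79, a difference of 0.27 (95% interval -0.65 to 1.19). Null replicate 2 lay just under heterozygote replicate 1 there, and the remaining nulls lay above both heterozygotes. At 1448957_at, whose annotated transcript is the same as that of 1418114_at, the readings were 6.15 and 6.24 against 6.27, 6.20 and 5.70. Null replicate 3 was the low array, and the difference of -0.14 became 0.039 without it.

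Rbpjl, the acinar paralogue that takes the place of Rbpj in the mature complex, was near or below background at both of its probe sets, which share an annotated transcript. Probe set 1421956_at read 1.71 and 3.45 in heterozygotes and -0.22, 1.14 and -0.25 in nulls. Only heterozygote replicate 2 was above background. The nulls were lower than both heterozygotes, but all 3 were below background, so the size of the difference is not measured and no fold is given. Raised to the background level, the same values differed by -0.14, against -2.36 as measured (limma adjusted p = 0.813). Probe set 1450433_at read 1.28 and 3.25 against 0.92, 2.39 and 1.84, above background on 0 arrays and with overlapping groups. Both probe sets were highest on heterozygote replicate 2, and the difference at 1450433_at went from -0.55 to 0.44 without that array.

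**Figure D2:**
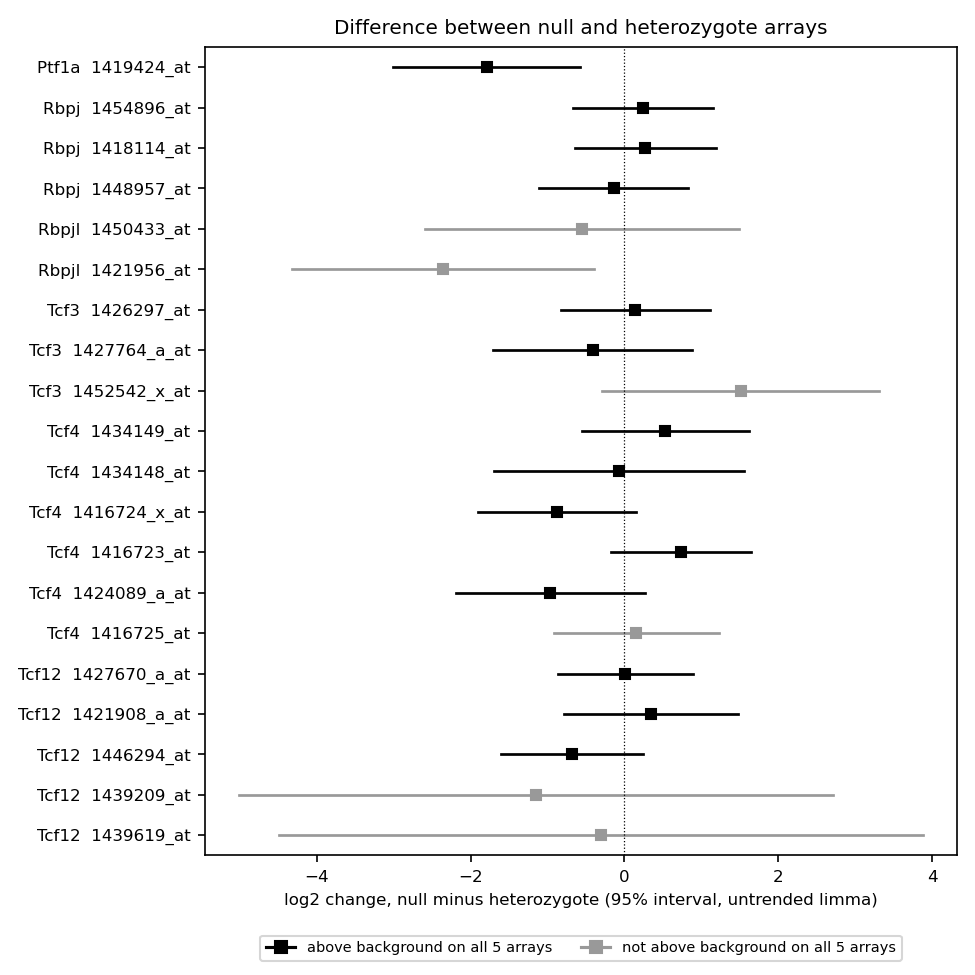
Log2 difference, null minus heterozygote (x axis), with its 95% interval from the untrended limma fit, for the 20 probe sets (rows); grey marks probe sets not above background on all 5 arrays. The intervals of Ptf1a (-3.00 to -0.58) and of the dim Rbpjl probe set 1421956_at (-4.32 to -0.40) do not reach 0 before adjustment, and the other 18 cross it.

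The E proteins are broadly expressed, and each can serve as the partner of Ptf1a. Of their 14 probe sets, 10 were above background on all arrays, and 5 of those 10 had a lower and 5 a higher mean in nulls, with a median log2 difference of -0.029. With no scaling between arrays 2 of them changed sign (Tcf3 1426297_at and Tcf12 1427670_a_at). The lowest adjusted p among the 14 was 0.947 in limma's untrended fit and 0.976 in the trended fit.

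Tcf3, which encodes the E12 and E47 proteins, had its brightest probe set, 1426297_at, at 6.41 and 6.51 in heterozygotes and 6.76, 6.80 and 6.24 in nulls. The groups overlapped, and the difference of 0.14 (95% interval -0.83 to 1.11) was -0.006 without scaling. At 1427764_a_at the readings were 5.48 and 5.88 against 5.95, 4.76 and 5.09, again overlapping, with a difference of -0.41. It was -0.75 without null replicate 1, -0.21 without heterozygote replicate 2 and -0.17 without null replicate 2. Probe set 1452542_x_at, built on the same annotated sequence, read 1.41 and 3.00 against 4.24, 3.97 and 2.93. It was above background on 0 heterozygote and 2 null arrays, which puts the null mean at least 1.46-fold higher (limma adjusted p = 0.951). That bound on the measured means was 1.22-fold to 1.92-fold with an array left out. The groups overlapped, as null replicate 3, itself below background, lay just under heterozygote replicate 2. The 95% interval of the log2 difference, -0.29 to 3.30, included 0. The log2 difference of 1.51 went to 0.71 with heterozygote replicate 1 omitted and to 2.29 with heterozygote replicate 2 omitted. The suffix _x_at marks probe sets that can cross-hybridise, and here the 2 probe sets of one sequence leaned in opposite directions.

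Tcf4, which encodes E2-2, was the only one of the 6 genes with probe sets at which the groups stood apart in both directions. Probe set 1416723_at read 4.86 and 4.71 in heterozygotes and 5.52, 5.30 and 5.72 in nulls, so every null was higher. The log2 difference was 0.73 (95% interval -0.18 to 1.65, limma adjusted p = 0.968). Probe set 1424089_a_at read 5.40 and 4.68 against 4.59, 3.69 and 3.96, so every null was lower, with a difference of -0.96 (95% interval -2.19 to 0.26, limma adjusted p = 0.974). That difference was -0.60 without heterozygote replicate 1. Probe set 1416724_x_at was also lower on every null array, at 6.07 and 5.52 against 5.21, 4.71 and 4.84, a difference of -0.88.

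All 3 of these Tcf4 probe sets were above background on all arrays. The within-array gap between 1416723_at and 1424089_a_at was -0.54 and 0.023 in heterozygotes and 0.93, 1.61 and 1.76 in nulls, so the pair shifted against each other between genotypes; the pair was picked after its values were seen, and the gap was not tested. The remaining Tcf4 probe sets overlapped between groups. Those were 1434149_at, at 6.27 and 5.45 against 6.33, 6.59 and 6.26 (difference 0.53, and 0.12 without heterozygote replicate 2 or 0.94 without heterozygote replicate 1), and 1434148_at, at 5.29 and 6.83 against 6.56, 5.58 and 5.85. These share an annotated sequence, and the heterozygotes stood in opposite order at the pair. The difference at 1434148_at, -0.068 on all arrays, was 0.70 when heterozygote replicate 2 was left out and -0.84 when heterozygote replicate 1 was. The last, 1416725_at, was above background on 0 arrays, at 1.73 to 2.51.

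Tcf12, which encodes HEB, had close group means at its brightest probe set. There 1427670_a_at read 7.99 and 8.28 in heterozygotes and 8.16, 8.16 and 8.11 in nulls, with all nulls between the heterozygotes. The difference was 0.010 (95% interval -0.87 to 0.89) and took the other sign, at -0.15, without scaling. At 1421908_a_at the readings were 7.37 and 6.87 against 7.53, 7.86 and 7.01, overlapping, with a difference of 0.34. It ran from 0.098 without heterozygote replicate 2 to 0.59 without heterozygote replicate 1, with 0.15 without null replicate 2 and 0.57 without null replicate 3.

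The dimmer Tcf12 probe sets read differently. At 1446294_at every null was lower, at 5.18 and 5.47 against 4.45, 4.63 and 4.85, a difference of -0.68 (95% interval -1.61 to 0.24, limma adjusted p = 0.979). At 1439209_at, 4 arrays read 4.28, 5.12, 4.60 and 5.32 and null replicate 3 read 0.73, below background. The difference of -1.15 there rests on that array and was 0.26 without it. At 1439619_at just null replicates 1 and 3 exceeded background, and signal ranged from -1.20 on null replicate 2 to 3.52 on null replicate 1.

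The Id proteins are helix-loop-helix factors without a DNA-binding region that sequester E proteins, and all 4 were above background on all arrays at their brightest probe set. Neither fit called any of them (0 of 4), and the median log2 difference was 0.010. Id1 read 6.84 and 6.46 in heterozygotes and 6.38, 6.36 and 6.17 in nulls, every null being lower, with a difference of -0.35 (limma adjusted p = 0.998) that went to -0.16 with heterozygote replicate 1 omitted and to -0.54 with heterozygote replicate 2 omitted. Id2, Id3 and Id4 overlapped between groups, with differences of 0.044, -0.025 and 0.11; that of Id2 was -0.16 and that of Id4 was -0.031 without scaling. Other probe sets of Id2 and Id4 leaned up to -1.41 (1422537_a_at) and 1.54 (1423259_at) but were above background on 3 arrays only.

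Among 28 named bHLH genes whose products also pair with E proteins, 0 were called by either fit, 13 had a higher and 15 a lower mean in nulls, and the median difference was -0.033. Bhlha15, which encodes the acinar maturation factor Mist1, read 4.93 and 4.51 in heterozygotes and 3.65, 3.86 and 3.24 in nulls. Every null was lower, by a mean of -1.13 (95% interval -2.15 to -0.12, limma adjusted p = 0.854). Its other probe set, 1418800_at, had a difference of 0.16 and was above background on 3 arrays. Mesp1, a mesoderm factor, lay close to background at 3.44 and 3.98 against 3.25, 3.44 and 2.71.

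Rbpj is also the DNA-binding part of the Notch activator complex, and its other cofactors were read for comparison. Of 10 coactivator genes 0 were called, 4 were higher and 6 lower in nulls, with a median of -0.094. Notch1, a receptor whose intracellular part binds Rbpj, read 7.40 and 7.19 in heterozygotes and 6.33, 6.22 and 6.34 in nulls. Its groups stood apart with little spread inside each, and the difference was -0.999 (95% interval -1.87 to -0.13, limma adjusted p = 0.832). The second Notch1 probe set, 1418633_at, read 3.86 and 3.81 against 1.14, 3.80 and 3.37, so its low mean in nulls rests on null replicate 1, which was below background. Of 14 corepressor genes 0 were called, 7 were higher and 7 lower, with a median of 0.002. The groups overlapped at all 14, where 10.1% of all probe sets stood apart with nulls lower and 9.90% with nulls higher.

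Among 12 targets of Rbpj in the Notch pathway 0 were called, 3 were higher and 9 lower in nulls, with a median of -0.15. Nrarp, a feedback inhibitor of Notch, read 6.86 and 6.87 in heterozygotes and 5.29, 5.57 and 6.32 in nulls, a difference of -1.14 (limma adjusted p = 0.915). Hey1, a bHLH repressor induced by Notch, read 7.43 and 7.42 against 6.56, 5.93 and 6.62, a difference of -1.05 (limma adjusted p = 0.895). Both were lower on every null array. Hes1, the repressor that holds pancreatic progenitors undifferentiated, overlapped between groups at 4.86 and 6.18 against 4.73, 5.71 and 2.66. A second Nrarp probe set, 1417986_at, differed by -0.29 with overlapping groups. Targets of Rbpj with Notch and of Rbpj with Ptf1a cannot be told apart from RNA levels.

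Genes reported to bind or need PTF1 had a median log2 difference of -0.86 over 21 named genes, against -0.010 over all probe sets. The median of the 6 red blood cell markers, the dim Hba-a1 included, was -1.05. Over genes above background on all arrays the medians were -0.86 for the PTF1 list and -0.81 for red blood cell markers. In nulls 16 of the 21 genes of the PTF1 list were lower and 5 higher. The groups stood apart with nulls lower at 10 of the 21 and with nulls higher at 0, where 10.1% and 9.90% of all probe sets do the same. Of those 10, 6 were above background on all arrays and 2, Cela2a and Ctrl, on 0 arrays; Cpb1 and Ctrb1 were also above it on no array. Neither fit called any of the 21 (0 of 21). Some members entered this list with their values in these arrays known, so the list is a description and not independent evidence. Among the 9 above background on all arrays, 8 were lower. Bud epithelium markers, 5 of which had every null below both heterozygotes, include some of the same genes.

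Cpa1, the gene of carboxypeptidase A1 and an early mark of multipotent progenitors, read 6.21 and 6.03 in heterozygotes and 0.72, 0.98 and 0.97 in nulls. All 3 nulls were below background, so its signal was at least 8.08-fold lower (limma adjusted p = 0.363). Mnx1, a homeodomain factor of the dorsal bud, read 7.31 and 7.30 against 5.11, 4.36 and 4.41, a difference of -2.68 (limma adjusted p = 0.369, and 0.0612 in the trended fit; 0.0612 to 0.851 over the alternatives). Both genes had heterozygotes close together and nulls far below them.

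Nr5a2, a nuclear receptor that works with PTF1 in acinar cells, read 9.59 and 8.76 in heterozygotes and 7.78, 7.95 and 8.07 in nulls, a difference of -1.24 (limma adjusted p = 0.829). Without heterozygote replicate 1 the difference was -0.82, and without heterozygote replicate 2 it was -1.65. A pair of its other probe sets, also above background on all arrays, differed by -0.84 and -1.86, and the last, 1449707_at, was above background on 1 array and on no null array. Pdx1, the homeodomain factor that defines the pancreatic field, read 7.61 and 7.73 against 7.05, 7.32 and 7.13, a difference of -0.51 (limma adjusted p = 0.991), and -0.84 at its other probe set. Myc, a growth regulator, read 4.72 and 5.32 against 4.12, -0.35 and 2.41 (limma adjusted p = 0.951). Null replicates 2 and 3 were below background there, so neither the size of the difference nor the spread of the nulls is measured.

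**Figure D3:**
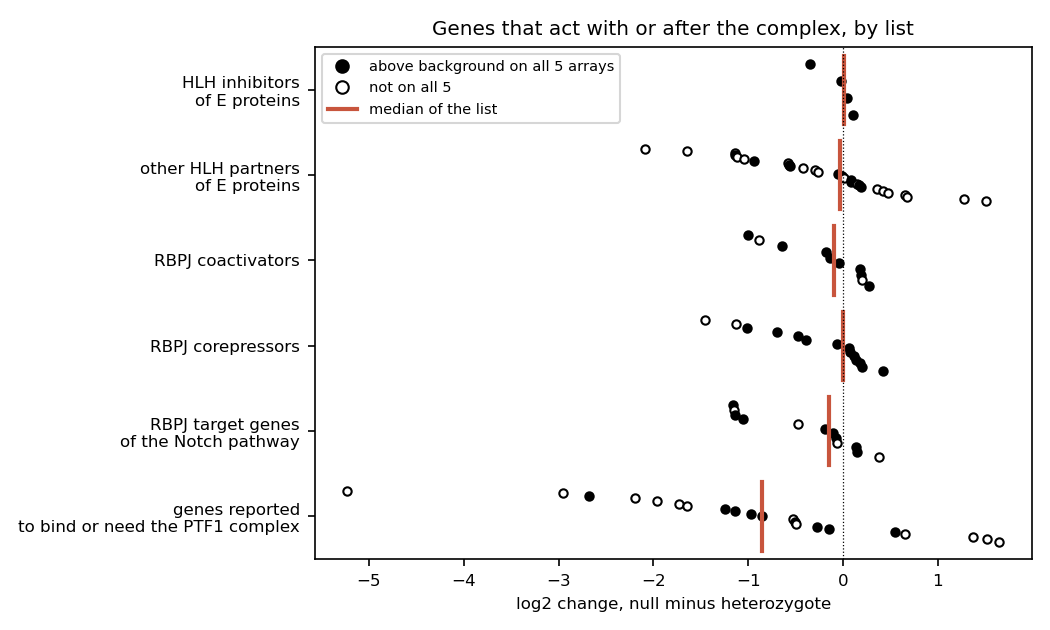
Log2 difference, null minus heterozygote (x axis), of the named genes of 6 lists (rows), each gene by its brightest probe set; filled points were above background on all 5 arrays, open points were not, and bars are list medians. The medians of the Id, cofactor and bHLH partner lists lie within 0.1 of 0. That of the Notch pathway targets of Rbpj lies at -0.15, and that of the PTF1 list at -0.86 with Cpa1 as its lowest point.

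The 5 probe sets with the profile most like that of Ptf1a were found among 18148 single-gene probe sets above background on all arrays, as those with the smallest mean absolute difference between mean-centred log2 profiles over the 5 arrays. They were 1416535_at of Mcrs1 (mean absolute difference 0.090), 1434918_at of Sox6 (0.16), 1452861_at of Cracdl (0.16), 1425413_at of Rfx3 (0.17) and 1440769_at of Coa7 (0.21). All were chosen for their likeness, so their lower signal in nulls is a description. Mcrs1, the nearest, read 5.50 and 5.72 in heterozygotes and 3.85, 4.35 and 3.34 in nulls, with the arrays in the same order as for Ptf1a. Sox6, an HMG-box transcription factor, read 6.32 and 6.41 against 4.65, 5.14 and 3.87.

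Other probe sets of these genes did not all share the profile. Rfx3, a winged-helix regulator of cilia genes, differed by -1.68 at 1425413_at and by 0.097 at 1437375_at. Coa7, which encodes a factor for assembly of cytochrome oxidase, differed by -1.93 at 1440769_at and by -0.20 at 1424520_at. The other 3 Sox6 probe sets had differences of -0.92, -1.04 and -0.37.

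**Figure D4:**
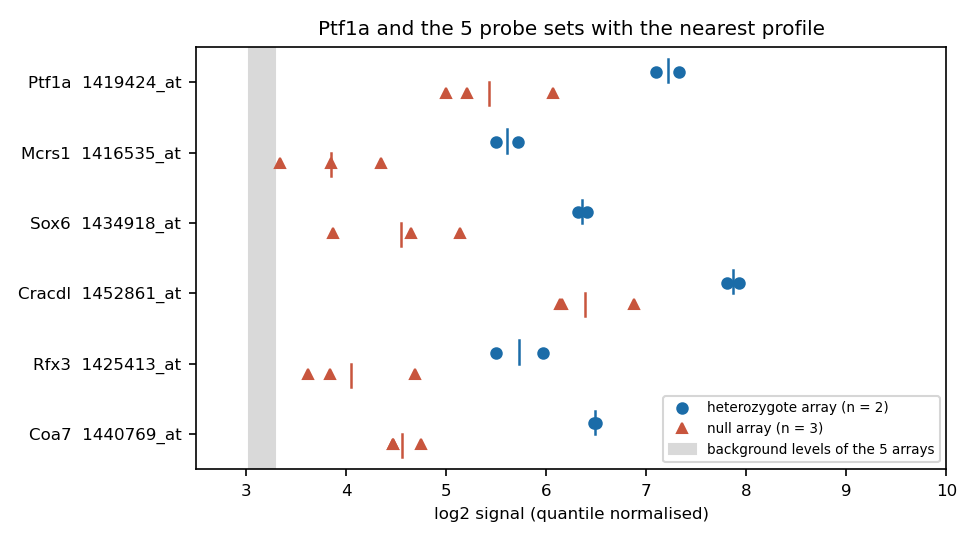
Log2 signal (x axis, quantile normalised) of Ptf1a and of the 5 probe sets with the nearest profile (rows), with circles for the 2 heterozygote arrays, triangles for the 3 null arrays, ticks for group means and a grey band for background. In each row both heterozygotes lie above all nulls, and null replicate 2 is the highest null, at 6.07 for Ptf1a and 4.35 for Mcrs1.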

How the data were processed

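The authors' deposited table gives 1 linear signal intensity per probe set and array. The submitters' processing notes name GCOS and RMA without versions, and no source states how background was removed. Here log2 was taken of the intensities as deposited, followed by quantile normalisation of the 5 arrays. After removal of 64 control probe sets, 45037 were fitted with limma 3.58.1 (lmFit, eBayes) in R 4.3.3, genotype as the only term, two-sided, Benjamini-Hochberg over all probe sets, threshold 0.05. The fit was also tested on simulated data. With 2 against 3 arrays an exact permutation test cannot go below 0.1, so none is given. Background is the 95th percentile of 27 Bacillus subtilis control probe sets on each array. Folds given as "at least" compare the mean of the brighter group with that of the dimmer, after raising the dimmer group's values to background.

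Genes were named from platform annotation of 1 symbol per probe set, and listed genes are represented by their brightest probe set. From each list, genes were named where the groups stood apart and 1 group was wholly above background (at most 4 by size), besides Pdx1, Cpa1, Id1 to Id4, Hes1 and Notch1. Members, lists and the motif spacing of 20 bases were chosen with earlier results of these data, or the sequences, known. Alternatives were the trended robust fit, median centring, no scaling, an offset of 16, values raised to background, a filter on dim probe sets, a replicate block, and each array left out. The number of arrays limits the precision.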

Additional observations from a re-analysis of the deposited data

How the results depend on the processing

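The trended robust fit called 8 probe sets, and each of the other 11 alternatives called 0, the omission of each array included. None of the 20 probe sets of the complex or the 15 other named ones was called under any alternative. Without scaling the median of all probe sets was -0.117 against -0.010. Ptf1a kept its sign throughout (-1.94 to -1.47 apart from omissions). None of the differences that changed sign had been called. Without scaling they were Tcf3 1426297_at (-0.006), Tcf12 1427670_a_at (-0.15), Id2 (-0.16) and Id4 (-0.031); with median centring, Tcf12 1427670_a_at (-0.11) and Id2 (-0.12); with an offset of 16, Tcf12 1439619_at (0.11); and with values raised to background, Tcf12 1439619_at (0.12) and Tcf4 1416725_at (-0.060).

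With the replicate block, Rbpj 1448957_at (0.038), Tcf4 1434148_at (0.005) and Tcf12 1439209_at (0.26) changed sign and 0 probe sets were called. Replicate number 3 holds a null array only, so the block takes that array out of the contrast. These values thus nearly repeat the omission of null replicate 3 (Ptf1a -1.58 in both) and do not show an effect of pairing. The numbers gave no sign of pairing the arrays: deviations from group means correlated at -0.091 for replicate 1 and 0.057 for replicate 2. With an array left out, differences ranged from -0.25 to 0.039 for Rbpj 1448957_at, -1.53 to 0.44 for Rbpjl 1450433_at, -0.84 to 0.70 for Tcf4 1434148_at and -0.21 to 0.52 for Tcf4 1416725_at. For Tcf12 they ranged from -0.13 to 0.16 at 1427670_a_at, -2.06 to 0.26 at 1439209_at and -1.14 to 1.22 at 1439619_at. For Id2 they ranged from -0.13 to 0.20, for Id3 from -0.13 to 0.078 and for Id4 from -0.15 to 0.50. The causes of these ranges were not tested. Dim probe sets, Rbpjl among them, gave no value with the dim filter where fewer than 2 arrays were above background, and signal over background limits what can be said of them.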
